A study of Mus musculus with 18 samples.

Results

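The BAF complex is a chromatin remodeler that uses ATP to move nucleosomes and so opens or closes DNA to transcription factors. It is built from a core that most cells share and from places that are filled by 1 of several related proteins. Neural progenitors fill these places with ACTL6A, SS18 and the PHD finger proteins PHF10 or DPF2, and when they leave the cell cycle the proteins ACTL6B, SS18L1 and DPF1 or DPF3 take over. The transcription factor REST represses neuronal genes in cells that are not neurons, and its loss in the neural lineage lets microRNAs lower the progenitor ACTL6A. SMARCD1 and SMARCD3 are related proteins that compete for another place, and SMARCD3 is also used in heart and muscle. The 10 genes for these exchanged subunits were 5 of the progenitor form (Actl6a, Phf10, Dpf2, Ss18, Smarcd1) and 5 of the neuronal form (Actl6b, Dpf1, Dpf3, Ss18l1, Smarcd3). They were chosen by name, but with earlier results of these data known. Smarcd1 was grouped with the progenitor form and Smarcd3 with the neuronal form for this comparison, a choice that the values by form below rest on. All 10 were found among the 46078 genes of the RNA-seq table, and 43 of 111664 ATAC-seq peaks lay between 5000 bp upstream of their starts and their ends.

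RNA and open chromatin were measured in cells sorted from lung tumors of mouse models of small cell lung cancer. This is a neuroendocrine tumor of the lung whose cells express many neuronal genes. Whether the sorted cells of the mutants kept that identity was not tested, and their markers are given below. TKO tumors carry loxP-flanked alleles of Rb1, of p53 and of another retinoblastoma family gene, which the sample labels give as Rbl1 and the methods as Rbl2. TKO;Carm1KO tumors (CARM1 knockout) carry the same alleles and loxP-flanked Carm1, the gene of an arginine methyltransferase. TKO;NfibR388K tumors (NFIB mutant) carry the same alleles and a lysine in place of the arginine of the transcription factor NFIB that CARM1 methylates. All mice received adenovirus with Cre in the lungs at 8 weeks of age and were aged for another 28 weeks, with 3 independent animals per genotype and 1 library per animal and assay. By the methods, tumor cells were sorted by a tdTomato reporter that Cre switches on, so any lung cell reached by the virus could carry it.

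Between 15848866 and 20915057 reads per RNA-seq library were counted on genes, and between 26917178 and 47653979 per ATAC-seq library on peaks. Levels are counts per 1000000 after scaling (CPM). Up to 3 counts, or 0.131 to 0.203 CPM, were read as no detection, a limit for counting error only. Carm1 RNA, summed over the whole gene, lay between 44.5 and 103 CPM in TKO and between 50.8 and 79.1 CPM in CARM1 knockout libraries, so it did not check the labels. The exons that Cre removes are not given in the sources used here. Nfib RNA lay between 420 and 580 CPM in TKO, 74.5 and 216 CPM in CARM1 knockout and 83.3 and 105 CPM in NFIB mutant libraries. Its log2 fold changes against TKO were -2.06 and -2.49 (adjusted p = 0.00799 and 0.00325, edgeR), so both mutants also differed from TKO in the level of Nfib RNA. The libraries differed in markers of other cells. The summed CPM of 9 fibroblast markers was 29.5 to 73.8 in TKO, 16509 to 28520 in CARM1 knockout and 11089 to 17661 in NFIB mutant libraries. The 12 neuroendocrine markers summed to 1813 to 4378 CPM in TKO and to 33.7 to 51.3 CPM in NFIB mutant libraries, with Calca and Resp18 not detected in any of these. In CARM1 knockout libraries they summed to 59.2, 189 and 2141 CPM, so that the 3rd library stood apart and reached the TKO range. That library also had the highest sum of its genotype in each of the other marker lists given here. The 10 neuronal markers summed to 1203 to 2768 CPM in TKO, 89 to 320 in CARM1 knockout and 67.2 to 117 in NFIB mutant libraries. By the test given below, 7 of the 9 tested were called lower with CARM1 knockout and 8 with the NFIB mutation. Of the 12 neuroendocrine markers 1 and 11 were called lower, and of the 9 fibroblast markers 9 and 8 were called higher. None of these was called the other way. Over all tested genes 18.3% and 23.5% were called lower, and 20.5% and 22.3% higher. Leukocyte markers summed to 4.43 to 57.8 CPM in TKO, 186 to 2746 in CARM1 knockout and 27.4 to 566 in NFIB mutant libraries, with Cd3e and Cd3g not detected in any library. Lung epithelium markers ranged from 286 to 635 CPM in TKO, from 3.39 to 879 in CARM1 knockout and from 5.02 to 1074 in NFIB mutant libraries, and endothelial markers stayed under 17.5 CPM in all. In these bulk samples, fewer cells of a type and less RNA per cell cannot be told apart, and the part of these markers in the results below was not tested.

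The DNA around the start sites that the results turn on is shown first, from the RefSeq promoter table of GRCm38.p6, which held promoters for 9 of the 10 genes (250 bases before the start and 50 after it, on the strand of the gene). Capitals mark matches on either strand to 5 short sequences, namely CAGCACC and GGACAGC (the parts of the site that REST binds), TTGGCA (the core that NFI proteins bind), CAGCTG (an E-box) and TGACTCA (the AP-1 site). Actl6b and Actl6a are shown as the pair of genes for the actin-related protein. Dpf3 is shown as the gene whose 10 peaks were all called lower in both mutants, and Smarcd1 for a loss of RNA without a called change at its start site. The windows are chr5:137553296-137553595 (plus strand), chr3:32708296-32708595 (plus strand), chr12:83487687-83487986 (minus strand) and chr15:99702037-99702336 (plus strand).
Actl6b promoter: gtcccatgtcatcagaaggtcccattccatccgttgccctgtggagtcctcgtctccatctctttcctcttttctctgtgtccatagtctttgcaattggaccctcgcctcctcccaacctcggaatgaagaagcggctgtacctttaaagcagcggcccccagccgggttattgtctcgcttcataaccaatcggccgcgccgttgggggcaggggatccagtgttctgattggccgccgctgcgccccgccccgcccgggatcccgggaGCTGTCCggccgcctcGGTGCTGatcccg
Actl6a promoter: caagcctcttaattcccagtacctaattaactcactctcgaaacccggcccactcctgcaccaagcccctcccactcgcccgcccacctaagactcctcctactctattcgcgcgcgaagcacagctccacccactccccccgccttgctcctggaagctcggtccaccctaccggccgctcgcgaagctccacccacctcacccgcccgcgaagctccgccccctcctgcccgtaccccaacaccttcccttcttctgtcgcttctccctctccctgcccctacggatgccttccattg
Dpf3 promoter: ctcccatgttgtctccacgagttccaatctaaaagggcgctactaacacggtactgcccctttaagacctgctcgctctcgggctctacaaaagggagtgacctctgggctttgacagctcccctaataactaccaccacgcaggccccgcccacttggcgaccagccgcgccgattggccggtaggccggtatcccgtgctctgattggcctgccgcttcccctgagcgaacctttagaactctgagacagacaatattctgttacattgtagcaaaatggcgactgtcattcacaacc
Smarcd1 promoter: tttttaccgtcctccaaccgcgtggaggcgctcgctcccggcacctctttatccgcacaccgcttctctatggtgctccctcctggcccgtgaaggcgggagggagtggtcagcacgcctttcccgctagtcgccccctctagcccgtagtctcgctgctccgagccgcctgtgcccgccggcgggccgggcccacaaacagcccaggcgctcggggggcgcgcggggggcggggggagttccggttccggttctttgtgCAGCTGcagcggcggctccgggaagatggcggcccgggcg
Of the 9 promoters, that of Actl6b was the one with CAGCACC, which 7.14% of 32851 promoters held, and the one with GGACAGC, which 6.56% held. Both matches lay in the first exon, between 22 and 44 bases past the RefSeq start, on the strand opposite to the gene, and 9 bases separated them. TTGGCA (14.1% of all promoters) and TGACTCA (5.2%) were in none of the 9, and CAGCTG (16.3%) was in those of Phf10, Smarcd1 and Smarcd3. These matches are descriptions of the letters, not of binding.

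In both mutants, RNA of most neuronal subunits was far lower than in TKO tumors, and no progenitor subunit was called higher. A gene was called where edgeR's quasi-likelihood test, adjusted by Benjamini-Hochberg over 15514 genes, gave an adjusted p below 0.1 and the log2 fold change was 0.8 or more in size. In CARM1 knockout tumors none of the 10 subunits was called higher and 4 were called lower (Dpf1, Dpf3, Ss18l1 and Smarcd1), against 20.5% and 18.3% of all tested genes. In NFIB mutant tumors 0 were called higher and 5 lower (the same 4 and Actl6b), against 22.3% and 23.5% of all tested genes. The median log2 fold change of the 5 neuronal subunits was -2.29 with CARM1 knockout and -2.54 with the NFIB mutation, that of the 5 progenitor subunits -0.39 and -0.22, and that of all tested genes -0.03 and -0.05. For 6 of the 10 genes all 6 mutant libraries were below all 3 TKO libraries, a pattern that 23.3% of all tested genes had, and for 0 genes all were above, which 22.3% had. Both comparisons share the TKO libraries. With library totals alone as the scale, 2508 genes were higher and 3856 lower in CARM1 knockout tumors, instead of 3185 and 2836, and 2687 and 4816 in NFIB mutant tumors, instead of 3459 and 3640.

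**Figure D1:**
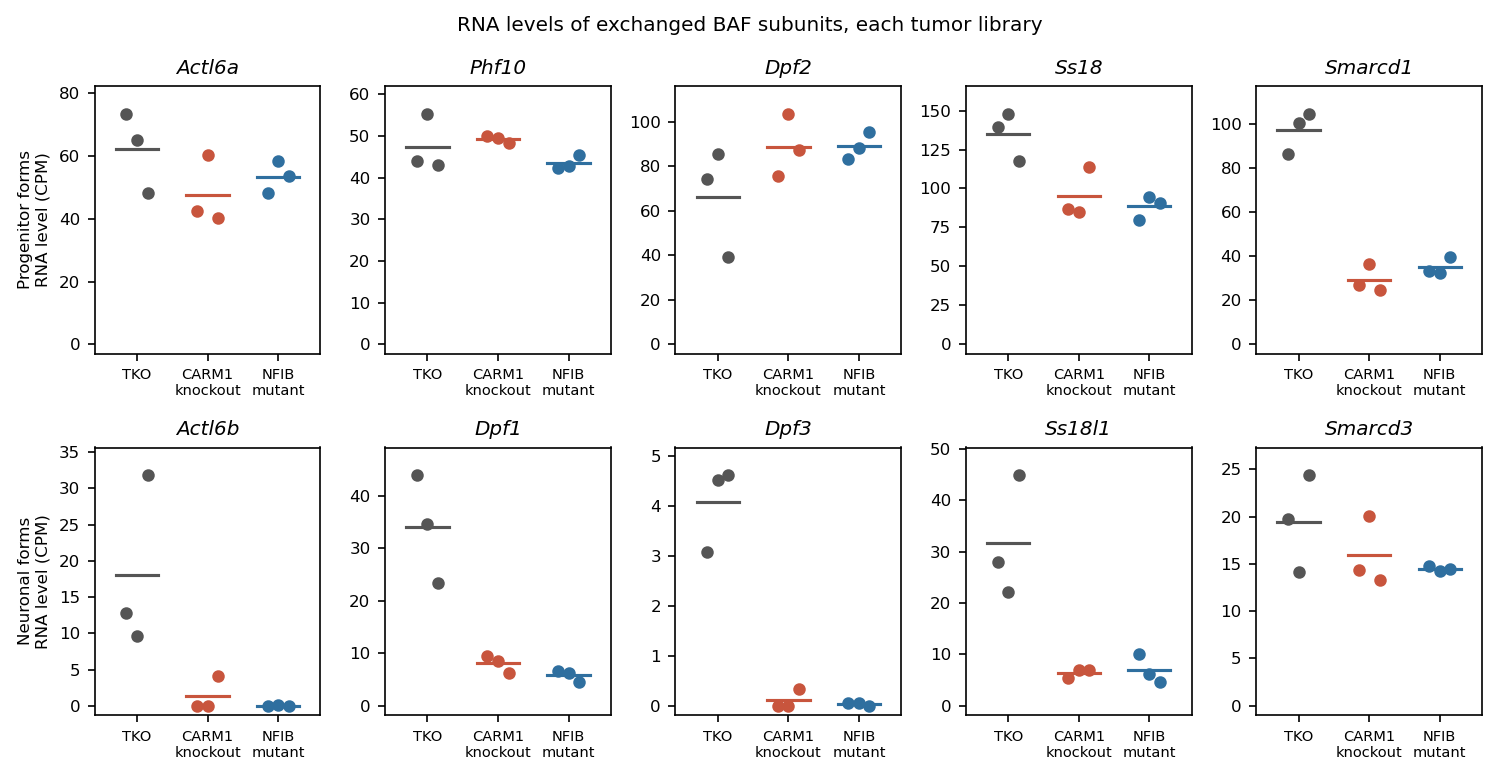
RNA level in CPM (y axis, linear, a scale for each gene) of the 10 exchanged BAF subunits in the 3 libraries of each genotype (points), with the mean as a line. Dpf1, Dpf3, Ss18l1, Actl6b and Smarcd1 lie lower in all 6 mutant libraries than in the 3 TKO libraries, as does Ss18 by a smaller step.

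Actl6b encodes the actin-related protein of the neuronal complex, and ENSMUSG00000029712 lies at chr5:137553517-137569582 of GRCm38. Its RNA level was 12.8, 9.58 and 31.8 CPM in TKO, 0, 0 and 4.05 CPM in CARM1 knockout and 0, 0.0616 and 0 CPM in NFIB mutant libraries. Reads were thus found in all TKO libraries, in the 3rd CARM1 knockout library, and as 1 single read in the NFIB mutant libraries. With 1204 reads in TKO and 1 in NFIB mutant tumors, the ratio of pooled reads was 880, with a 95% counting interval of 158 to 34782. That interval leaves out the spread between animals, and the fitted 95% interval was -15.3 to -3.47 on the log2 scale. With the NFIB mutant libraries at the detection limit of 3 counts, the ratio was at least 97.2. The gene was called lower (adjusted p = 0.0214, edgeR). In CARM1 knockout tumors the log2 fold change was -3.73 ± 1.84 (SE, 95% interval -7.97 to 0.51) and was not called (adjusted p = 0.145, edgeR). Without the 3rd CARM1 knockout library, both others being at 0 counts, it was called lower with an adjusted p of 0.00547 (edgeR), where the fitted fold is no measure of size.

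Actl6a (chr3:32706298-32726973), the actin-related protein of progenitors, was not called in either mutant. Its RNA level was 73.6, 65.3 and 48.3 CPM in TKO, 42.4, 60.5 and 40.3 CPM in CARM1 knockout and 48.2, 58.4 and 53.6 CPM in NFIB mutant libraries. The groups overlapped, and the log2 fold changes were -0.39 (95% interval -0.90 to 0.13, adjusted p = 0.207) and -0.22 (-0.74 to 0.29, adjusted p = 0.439). On a scale of CPM per kilobase of exon, the summed level of both genes was 20.3 ± 1.49 (SD, n = 3) in TKO tumors, 12.6 ± 2.57 with CARM1 knockout and 13.7 ± 1.32 with the NFIB mutation. Actl6b made up 13.7, 11.8 and 37.5% of this sum in the TKO libraries, 0, 0 and 8.38% in CARM1 knockout and 0, 0.0960 and 0% in NFIB mutant libraries.

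Dpf1 (chr7:29303951-29318243) and Dpf3 (chr12:83213745-83487716) encode the PHD finger proteins of the neuronal complex, which read modified histone tails. The RNA level of Dpf1 was 43.9, 34.7 and 23.4 CPM in TKO, 9.49, 8.51 and 6.29 CPM in CARM1 knockout and 6.69, 6.23 and 4.57 CPM in NFIB mutant libraries. It fell by 2.07 ± 0.33 on the log2 scale in CARM1 knockout tumors (adjusted p = 0.00342, edgeR) and fell by 2.54 ± 0.33 in NFIB mutant tumors (adjusted p = 0.00141). The 2 mutants had no library in the TKO range, and each CARM1 knockout library but the 3rd lay above the NFIB mutant libraries. Dpf3 was the rarest of the 10 subunits in TKO tumors, with 3.07, 4.51 and 4.61 CPM. It was at 0, 0 and 0.337 CPM in CARM1 knockout and at 0.0608, 0.0616 and 0 CPM in NFIB mutant libraries. Here too the reads left in CARM1 knockout tumors, 6 in all, came from the 3rd library. With 271 reads in TKO tumors, the ratio of pooled reads was 33.9 over CARM1 knockout (95% counting interval 15.4 to 93.1). Over NFIB mutant tumors it was 99.0 (27.1 to 822, from 2 reads), or at least 21.8 with these libraries at the detection limit. Both counting intervals leave out the spread between animals. The fitted 95% intervals were -8.05 to -2.06 and -9.71 to -3.10 on the log2 scale. Both falls of Dpf3 were called (adjusted p = 0.0206 and 0.0103, edgeR).

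Dpf2 (chr19:5896516-5913010) and Phf10 (chr17:14945009-14961273), the PHD finger proteins of progenitors, were not called in any comparison. Dpf2, which is used in many cell types, was at 74.1, 85.2 and 39.0 CPM in TKO, 75.4, 104 and 87.4 CPM in CARM1 knockout and 83.4, 88.1 and 95.2 CPM in NFIB mutant libraries. The 3rd TKO library was lowest and the groups overlapped (log2 fold change 0.43 in both mutants, 95% intervals -0.22 to 1.07 and -0.21 to 1.07). Phf10, a subunit of the PBAF variant that keeps progenitors dividing, was the steadiest of the 10, at 44.0, 55.4 and 43.1 CPM in TKO, 50.1, 49.5 and 48.3 CPM in CARM1 knockout and 42.4, 42.9 and 45.4 CPM in NFIB mutant libraries. Its log2 fold changes were 0.05 (95% interval -0.29 to 0.40) and -0.12 (-0.47 to 0.22). Per kilobase, Dpf1 and Dpf3 together made up 30.4, 23.6 and 26.9% of the RNA of the 4 PHD finger genes in TKO libraries. This share was 7.49, 5.74 and 5.10% in CARM1 knockout and 5.54, 5.0 and 3.44% in NFIB mutant libraries. The summed level of the 4 genes was 27.1 ± 6.12 (SD, n = 3) in TKO tumors, 25.2 ± 2.10 with CARM1 knockout and 23.6 ± 1.01 CPM per kilobase with the NFIB mutation, with overlapping ranges.

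Ss18l1 (chr2:180042509-180070201), also called CREST, is a coactivator needed for dendrite growth in response to calcium. Its RNA level was 28.0, 22.2 and 44.9 CPM in TKO, 5.49, 7.0 and 6.91 CPM in CARM1 knockout and 10.2, 6.16 and 4.70 CPM in NFIB mutant libraries. It fell by 2.29 ± 0.40 on the log2 scale in CARM1 knockout tumors (adjusted p = 0.00479, edgeR) and fell by 2.18 ± 0.40 in NFIB mutant tumors (adjusted p = 0.00457), with no overlap with TKO. Ss18, its progenitor counterpart, was at 140, 148 and 118 CPM in TKO, 86.8, 84.8 and 114 CPM in CARM1 knockout and 80.1, 94.7 and 90.5 CPM in NFIB mutant libraries. All 6 mutant libraries were below the TKO libraries, but the log2 fold changes of -0.51 ± 0.17 (adjusted p = 0.0498) and -0.61 ± 0.17 (adjusted p = 0.0224) were under the size needed for a call. With library totals alone as the scale, the NFIB mutant value of Ss18 was -0.94 and was called. Ss18l1 made up 30.3, 24.5 and 45.3% of the RNA of this pair per kilobase in TKO libraries, 12.1, 15.2 and 11.6% in CARM1 knockout and 21.6, 12.4 and 10.1% in NFIB mutant libraries.

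Smarcd1 (chr15:99702129-99713991) and Smarcd3 (chr5:24590818-24624411) went against the other pairs as grouped here. The gene grouped as progenitor was called lower and the gene grouped as neuronal was not. Smarcd1, which links BAF to nuclear receptors, was at 86.4, 100 and 105 CPM in TKO, 26.8, 36.5 and 24.8 CPM in CARM1 knockout and 33.2, 32.1 and 39.8 CPM in NFIB mutant libraries. It fell by 1.72 ± 0.20 on the log2 scale in CARM1 knockout tumors (adjusted p = 0.00112, edgeR) and fell by 1.47 ± 0.20 in NFIB mutant tumors (adjusted p = 0.00150), to levels 3.30-fold and 2.77-fold lower than in TKO tumors. Smarcd3 was at 19.7, 14.2 and 24.4 CPM in TKO, 14.4, 20.0 and 13.3 CPM in CARM1 knockout and 14.8, 14.2 and 14.4 CPM in NFIB mutant libraries. The groups overlapped, and the log2 fold changes were -0.29 (95% interval -0.92 to 0.35, adjusted p = 0.433) and -0.42 (-1.06 to 0.21, adjusted p = 0.240). Smarcd2, the third gene of this family, was not called either, with means of 94.2 ± 16.7 (SD, n = 3), 82.7 ± 16.9 and 97.5 ± 9.25 CPM in TKO, CARM1 knockout and NFIB mutant tumors. The summed level of the 3 genes was 54.1 ± 4.74 CPM per kilobase in TKO tumors, 33.4 ± 6.61 with CARM1 knockout and 38.7 ± 3.59 with the NFIB mutation. Smarcd3 made up 4.68 to 8.90% of this sum in TKO, 8.15 to 10.1% in CARM1 knockout and 6.61 to 7.82% in NFIB mutant libraries.

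**Figure D2:**
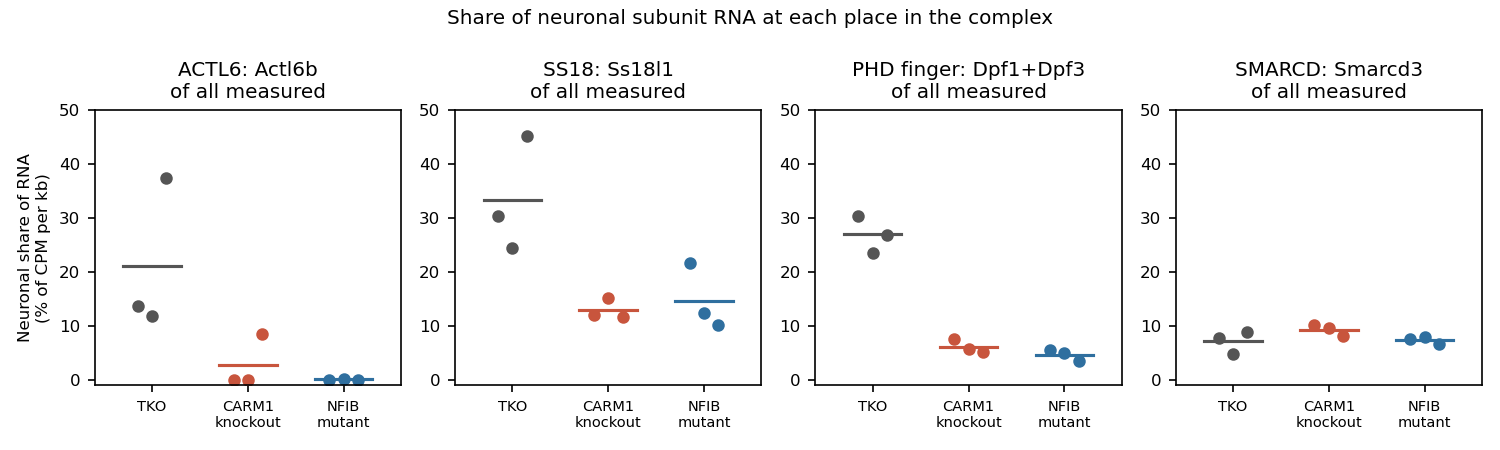
Share of the neuronal subunit (y axis, % of the summed CPM per kilobase of exon of the genes that compete for a place) in each library (points), with the mean as a line. The share is lower in all mutant libraries for Actl6b, Ss18l1 and the sum of Dpf1 and Dpf3, and overlaps between genotypes for Smarcd3, where Smarcd2 counts in the sum.

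As log2 ratios of the neuronal to the progenitor gene per kilobase, with genes under 3 counts set to 3 counts, the means were -2.10 ± 1.19 (SD, n = 3) in TKO tumors, -6.62 ± 2.77 with CARM1 knockout and -8.30 ± 0.13 with the NFIB mutation for Actl6b over Actl6a. The ratio of Dpf1 and Dpf3 over Dpf2 and Phf10 was -1.44 ± 0.25, -3.94 ± 0.32 and -4.34 ± 0.35, and that of Ss18l1 over Ss18 was -1.03 ± 0.69, -2.76 ± 0.24 and -2.61 ± 0.67. For these 3 pairs no mutant library reached the TKO range. The ratio of Smarcd3 over Smarcd1 ran the other way, at -2.70 ± 0.41 in TKO tumors, -1.24 ± 0.02 with CARM1 knockout and -1.62 ± 0.17 with the NFIB mutation, with all mutant libraries above the TKO libraries. These ratios are given without a test, and with 3 libraries against 3 an exact permutation test cannot go below p = 0.1.

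Ranked by CPM per kilobase, the progenitor genes held the first 5 places in all 3 genotypes. In TKO tumors Smarcd1 came first (24.1 ± 2.36, SD, n = 3), above the range of the next gene, followed by Actl6a (16.0 ± 3.32), Ss18 (14.4 ± 1.65), Dpf2 (10.2 ± 3.71) and Phf10 (9.66 ± 1.39). Below them came Ss18l1 (7.30 ± 2.72), Dpf1 (6.32 ± 1.92), Actl6b (4.24 ± 2.81), Smarcd3 (3.79 ± 0.997) and Dpf3 (0.962 ± 0.203). From Actl6a down to Smarcd3 each gene overlapped with its neighbour in this order. In both mutants Smarcd1 had moved to the fifth place, at 7.30 ± 1.55 with CARM1 knockout and 8.70 ± 1.03 with the NFIB mutation. Smarcd3 was then the neuronal gene with the highest level, at 3.10 ± 0.702 and 2.83 ± 0.0528, above the ranges of Dpf1 and Ss18l1.

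The mutants were next compared with each other. None of the 10 genes was called between CARM1 knockout and NFIB mutant tumors, where edgeR called 0% of the tested genes higher and 0% lower. Over all genes, 1414 had an unadjusted p under 0.05 and DESeq2 called 546, none of which was one of the 10 subunits. The intervals of the difference were narrowest for Phf10, from -0.17 to 0.53 on the log2 scale, and Ss18, from -0.29 to 0.50. Phf10 was the one gene whose CARM1 knockout libraries all lay above the NFIB mutant libraries. The intervals ran from -0.70 to 0.19 for Smarcd1, from -0.25 to 1.20 for Dpf1, from -0.99 to 0.76 for Ss18l1 and from -0.68 to 0.36 for Actl6a, so changes of that size between the mutants remain possible. For Actl6b the CARM1 knockout libraries held 72 reads, all in 1 library, against 1 read in the NFIB mutant libraries, with an adjusted p of 0.541 (edgeR).

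**Figure D3:**
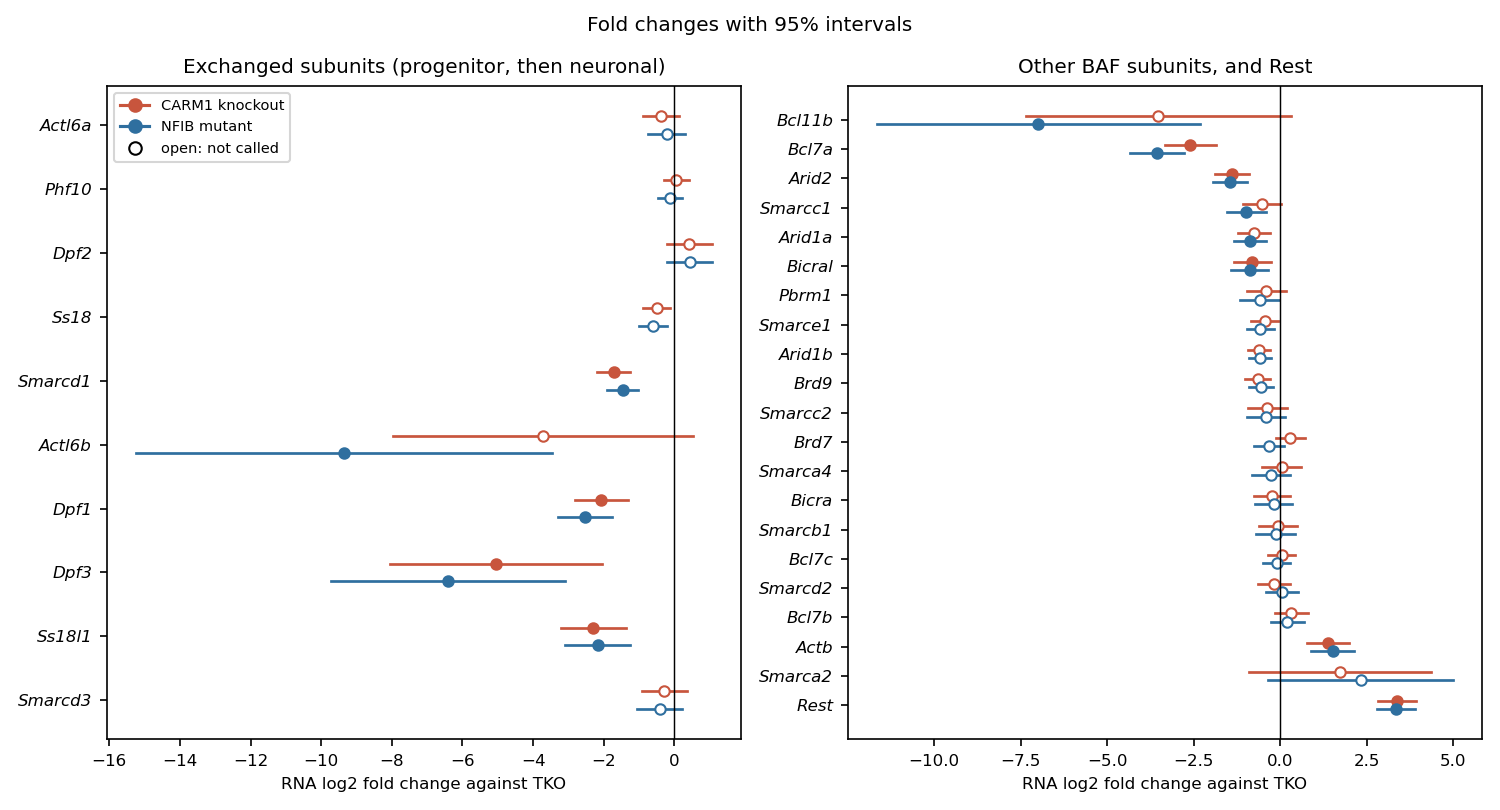
RNA log2 fold change against TKO with its 95% interval (x axis) in CARM1 knockout and NFIB mutant tumors for the 10 exchanged subunits (left) and for the 20 other BAF subunits tested and Rest (right). Filled points were called, among them 4 and 5 of the exchanged subunits, all lower, and the fitted RNA values of Actl6b and Dpf3 rest on few mutant reads and are no measure of size.

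RNA of the other BAF subunits was read as well. Of 21 listed genes, 20 were tested, of which CARM1 knockout tumors had 1 called higher and 3 called lower, and NFIB mutant tumors 1 and 6. Over all tested genes 20.5% were called higher and 18.3% lower with CARM1 knockout, and 22.3% and 23.5% with the NFIB mutation. Their median log2 fold changes were -0.39 and -0.49. The ATPases did not pass the test. Smarca4, the main ATPase, averaged 363 ± 73.4 (SD, n = 3), 372 ± 92.2 and 301 ± 41.2 CPM in TKO, CARM1 knockout and NFIB mutant tumors. Smarca2, the alternative ATPase, was at 2.11, 1.27 and 36.9 CPM in TKO libraries and at 30.9 to 84.5 CPM in the 6 mutant libraries. Without the 3rd TKO library Smarca2 was called higher in both mutants, by 4.75 and 5.33 on the log2 scale (adjusted p = 0.00234 and 0.00145, edgeR).

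For 4 of these subunits the call was shared by both mutants. Bcl7a, a small subunit of the ATPase module, had log2 fold changes of -2.6 ± 0.32 and -3.56 ± 0.34, from 193 ± 43.4 CPM in TKO to 32.0 ± 9.57 and 16.4 ± 4.68 CPM. Arid2, which defines the PBAF variant together with Phf10, changed by -1.39 ± 0.21 and -1.45 ± 0.21, from 201 ± 20.6 to 76.5 ± 5.78 and 73.6 ± 20.5 CPM. Bicral, of the non-canonical variant, changed by -0.81 ± 0.23 and -0.88 ± 0.23, with the CARM1 knockout call lost without the 3rd TKO library (-0.75) or the 1st or 2nd CARM1 knockout library (-0.66 and -0.79) and the NFIB mutant call without the 3rd NFIB mutant library (-0.74). Actb, which supplies the actin of the complex and of the cytoskeleton, rose by 1.38 ± 0.27 and 1.51 ± 0.27. The core scaffold Smarcc1 fell by 0.98 ± 0.24 on the log2 scale in NFIB mutant tumors (adjusted p = 0.0143, edgeR) and had a log2 fold change of -0.52 ± 0.24 in CARM1 knockout tumors (adjusted p = 0.122), a difference between the mutants that was not called (adjusted p = 0.604).

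REST and proteins that act with it formed a further list of 13 genes, 10 of which were tested. Rest was at 4.18, 6.69 and 5.63 CPM in TKO, 60.1, 60.5 and 50.1 CPM in CARM1 knockout and 57.5, 63.9 and 47.3 CPM in NFIB mutant libraries. It rose by 3.37 ± 0.24 and 3.35 ± 0.24 on the log2 scale (adjusted p = 0.000331 and 0.000257, edgeR), with no overlap between the groups, and the 3rd CARM1 knockout library lay with the others. Calls among the 10 tested genes were 2 higher (Rest and Hdac1) and 5 lower with CARM1 knockout, and 1 higher and 4 lower with the NFIB mutation, beside 20.5% and 18.3%, and 22.3% and 23.5%, of all tested genes. Lower in both were Hdac2 (-1.08 ± 0.14 and -1.47 ± 0.14) and Kdm1a (-0.96 ± 0.22 and -1.26 ± 0.22), enzymes that REST brings to its targets, and Rcor3 (-0.87 ± 0.28 and -1.06 ± 0.28), of the family that links them. The host gene of miR-124, the microRNA that lowers Actl6a in neurons, was annotated as Mir124a-1hg and held 1.83, 3.81 and 12 CPM in TKO libraries. It was at 0, 0 and 0.393 CPM in CARM1 knockout and at 0 CPM in all NFIB mutant libraries, and was called lower in both (adjusted p = 0.0521 and 0.0188, edgeR). The microRNA itself was not measured. In CARM1 knockout tumors the call of Mir124a-1hg was lost without the 3rd TKO or the 1st or 2nd CARM1 knockout library (adjusted p = 0.104 to 0.123, edgeR). That of Kdm1a was lost without the 1st CARM1 knockout library (-0.77), and that of Rcor3 without any of 4 libraries, the 2nd and 3rd of TKO (-0.77 and -0.76) and the 1st and 2nd of CARM1 knockout (-0.82 and -0.69).

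The genes most like Actl6b over the 9 RNA-seq libraries, by Pearson's r of log2 CPM among 8309 genes with at least 5 log2 CPM in a genotype, were Diras1 (0.997), Celf3 (0.997), Sox1 (0.995), Sh3gl2 (0.995) and Astn1 (0.994). Most like Actl6a among 8308 genes were Nup85 (0.957), Dazap1 (0.956), Cdc6 (0.952), Spc24 (0.951) and Ilf2 (0.931). These are descriptions across libraries that share 3 genotypes and their differences in depth and cell markers.

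Open chromatin was then read at the 43 peaks of the 10 genes, of which 29 belonged to neuronal and 14 to progenitor subunits, and 18 lay within 1000 bp of an annotated start. A peak was called where the same test over 111116 peaks gave an adjusted p below 0.1 and a log2 fold change of 0.5 or more in size. In CARM1 knockout tumors that gave 7 higher and 25 lower peaks of the 43. In all peaks 38.7% were called higher and 32.4% lower. In NFIB mutant tumors 7 were called higher and 24 lower, against 39.3% and 34% of all peaks. The totals over all peaks, 42971 higher and 36014 lower with CARM1 knockout and 43655 and 37777 with the NFIB mutation, became 52571 and 27254 and 52670 and 29271 with library totals alone, and 49265 and 29210 and 50984 and 30061 with totals over start-site peaks of genes whose RNA hardly changed. Of the 29 peaks at neuronal subunits 2 were called higher and 21 lower in each mutant, and of the 14 at progenitor subunits 5 were called higher in each, and 4 and 3 lower. At 21 of the 43 peaks all 6 mutant libraries lay below the TKO libraries and at 6 above them, which held for 28.6% and 33.1% of all peaks. The median log2 fold change was -1.10 and -1.22 at neuronal and 0.19 and 0.51 at progenitor subunits, beside 0.22 in both mutants over all peaks.

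**Figure D4:**
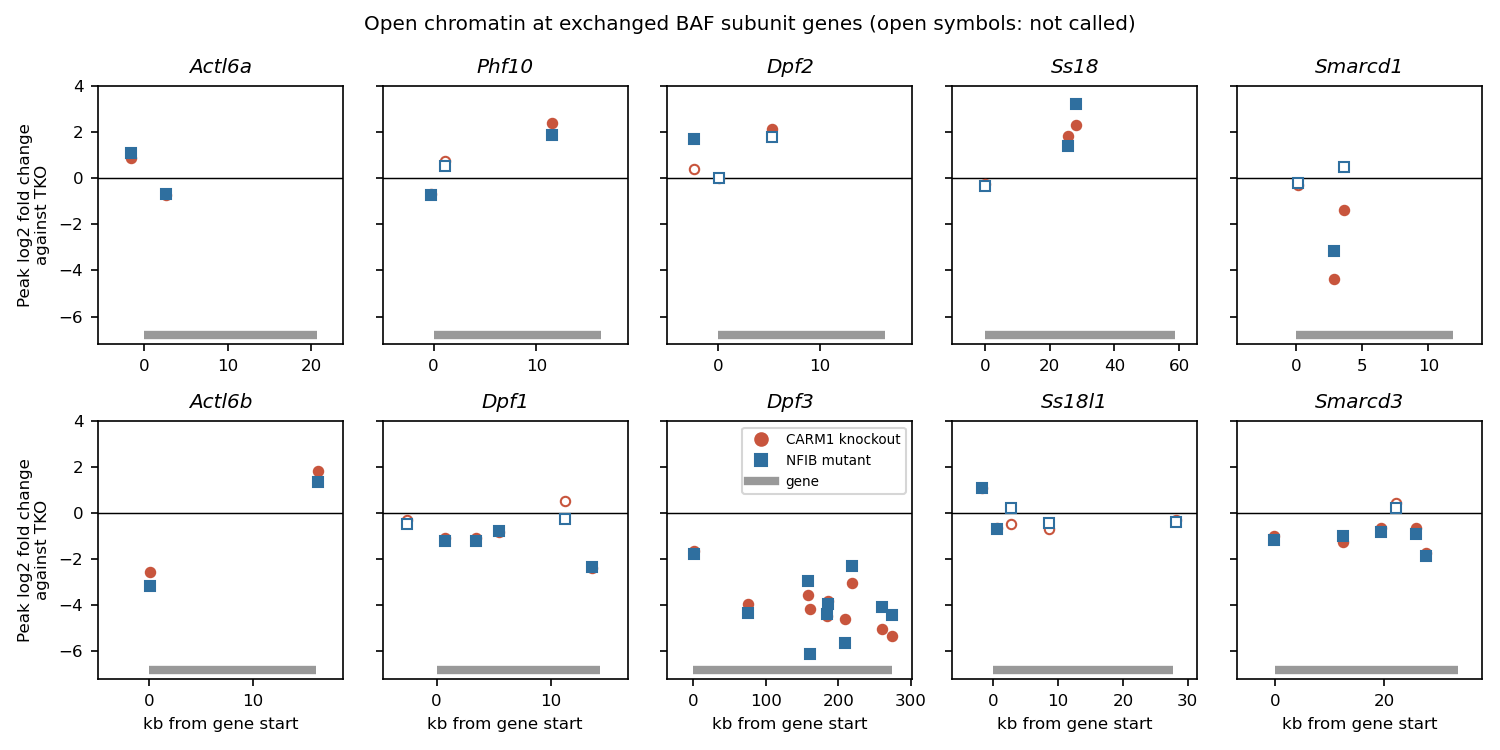
Log2 fold change of each peak against TKO (y axis) by its distance from the start of the gene (x axis, kb, a scale for each gene), with the gene as a grey bar. All 10 peaks of Dpf3 and the start site peak of Actl6b lie below 0 and were called in both mutants, and the start site peak of Dpf2 lies at 0.

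At Actl6b the peak over the start site, chr5:137553055-137554172, covers the promoter printed above. It held 14.1, 11.8 and 16.2 CPM in TKO, 1.94, 1.65 and 3.60 CPM in CARM1 knockout and 1.97, 1.73 and 1.0 CPM in NFIB mutant libraries. Its log2 fold changes were -2.55 ± 0.43 and -3.16 ± 0.45 (adjusted p = 0.000717 and 0.000230, edgeR). The highest of the CARM1 knockout libraries was the 3rd, which was also the one with Actl6b reads in the RNA-seq. The other peak of Actl6b, past its end and at the start of Tfr2, was called higher in both mutants. Actl6a had 2 peaks, a start site peak that changed by -0.72 ± 0.21 and -0.70 ± 0.21 and a weaker upstream peak that rose by 0.87 ± 0.38 and 1.09 ± 0.39. The CARM1 knockout call of the upstream peak (adjusted p = 0.0664, edgeR) was lost under 6 alternatives, among them without the 2nd TKO library (0.69) or without the 1st or 2nd CARM1 knockout library (0.86 and 0.78).

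Dpf3 was the longest of the 10 genes, 273972 bp on the minus strand, and had 10 peaks. All of them were called lower in both mutants, with log2 fold changes of -1.63 to -5.35 with CARM1 knockout and -1.76 to -6.13 with the NFIB mutation, and at each of them no mutant library reached the TKO range. The start site peak held 61.1, 56.1 and 41.7 CPM in TKO, 16.4, 17.7 and 17.3 CPM in CARM1 knockout and 14.9, 20.6 and 11.4 CPM in NFIB mutant libraries. It had the smallest of the 10 falls. The largest mean fall was at an intronic peak, chr12:83325923-83326918, which lies 161 kb from the start. It held 16.4, 9.33 and 11.6 CPM in TKO, 0.362, 0.461 and 1.26 CPM in CARM1 knockout and 0.120, 0.265 and 0.137 CPM in NFIB mutant libraries, with log2 fold changes of -4.16 ± 0.58 and -6.13 ± 0.65 (adjusted p = 0.000245 and 5.27e-05, edgeR). Its middle 300 bases (chr12:83326270-83326569) and those of the neighbouring intronic peak (chr12:83328760-83329059), on the plus strand, are shown because the DNA near them was open in TKO tumors and held few reads in both mutants.
Dpf3 intronic peak: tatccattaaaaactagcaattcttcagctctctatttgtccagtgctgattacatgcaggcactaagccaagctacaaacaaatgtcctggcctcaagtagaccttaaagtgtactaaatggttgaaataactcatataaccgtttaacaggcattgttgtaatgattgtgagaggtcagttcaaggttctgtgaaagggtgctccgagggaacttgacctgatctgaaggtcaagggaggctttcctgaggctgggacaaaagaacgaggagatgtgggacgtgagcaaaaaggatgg
Dpf3 neighbouring peak: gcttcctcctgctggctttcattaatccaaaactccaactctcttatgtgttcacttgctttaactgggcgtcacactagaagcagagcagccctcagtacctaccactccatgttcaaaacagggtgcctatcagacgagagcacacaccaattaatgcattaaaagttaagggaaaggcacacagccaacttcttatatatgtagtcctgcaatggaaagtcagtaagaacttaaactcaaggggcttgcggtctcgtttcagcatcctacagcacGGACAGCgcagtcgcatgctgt
The first held none of the 5 sequences named above, and the neighbour held GGACAGC, which 7.07% of the middle 300 bases of all peaks held. Of the 40 peaks of the genes other than Ss18, 7 held GGACAGC, 4 held CAGCACC (7.43% of all), 3 held TTGGCA (21.3% of all), 13 held CAGCTG (22.7%) and 3 held TGACTCA (18.5%). The start site peak of Actl6b was the one with both GGACAGC and CAGCACC.

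Dpf1 had 6 peaks, of which 4 were called lower and 0 higher in each mutant. The start site peak with most reads held 41.5, 42.2 and 37.1 CPM in TKO, 19.7, 17.4 and 19.2 CPM in CARM1 knockout and 14, 20.5 and 17.4 CPM in NFIB mutant libraries. Its log2 fold changes were -1.10 ± 0.18 and -1.22 ± 0.18 (adjusted p = 0.000601 and 0.000311, edgeR). The largest fall of Dpf1 was at its 3′ end, over an exon 13.6 kb from the start (-2.38 ± 0.52 and -2.33 ± 0.52). There the TKO libraries themselves ranged from 5.66 CPM, in the 3rd, to 29.4 CPM, and all mutant libraries lay between 3.15 and 4.81 CPM.

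At Ss18l1, 1 of 5 peaks was called lower and 1 higher in each mutant. Its start site peak, which also covers the start of Psma7, held 61.8, 60.0 and 83.8 CPM in TKO, 37.3, 44.8 and 48.6 CPM in CARM1 knockout and 40.9, 48.1 and 37.4 CPM in NFIB mutant libraries. Its log2 fold changes were -0.65 ± 0.17 and -0.70 ± 0.17, and an upstream peak of 1.14 to 2.10 CPM in TKO rose by 1.09 ± 0.43 and 1.08 ± 0.43, calls that were lost without the 2nd TKO library (0.86 and 0.85) and, for the NFIB mutant, without its 2nd library (0.78). The CARM1 knockout call of the start site peak was lost without the 3rd TKO library (-0.48). For the progenitor genes Ss18, Dpf2 and Smarcd1 the start site peak with most reads was not called, with log2 fold changes of -0.24 and -0.34, of -0.00 and 0.02 and of -0.30 and -0.21. Dpf2 had a weaker peak at another start, of 0.062 to 0.380 CPM in TKO libraries, that was called higher in CARM1 knockout tumors (2.14, adjusted p = 0.0578, edgeR) but not in NFIB mutant tumors (1.77, adjusted p = 0.104). The CARM1 knockout call was lost without the 1st or 2nd TKO or the 2nd CARM1 knockout library (2.31, 1.67 and 1.76). The NFIB mutant value was called without the 3rd TKO or the 1st or 3rd NFIB mutant library (2.23, 2.11 and 2.26). For Smarcd1 the CARM1 knockout libraries lay below the TKO libraries and the NFIB mutant libraries overlapped with them, with 27.4, 27.3 and 25.3 CPM in TKO, 18.2, 23.5 and 23.4 CPM in CARM1 knockout and 25.8, 22.2 and 21.4 CPM in NFIB mutant libraries, although its RNA had fallen in all 6 mutant libraries. A weak intronic peak of Smarcd1 was called lower in both mutants, with most of its reads in the 3rd TKO library (12.1 CPM, against 0.414 and 0.773 in the others), and without it the log2 fold changes moved from -4.36 to -1.47 (still called, adjusted p = 0.0847) and from -3.14 to -0.25 (not called), by edgeR. Within Ss18, intronic peaks that were near 0 in TKO rose in both mutants, the stronger from 0.287 to 0.433 CPM to 1.24 to 3.65 CPM.

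Smarcd3 had several starts, and its peaks did not move alike. The start site peak with most reads, 22.1 kb into the gene, held 25.7, 27.4 and 20.7 CPM in TKO, 27.1, 42.6 and 30.6 CPM in CARM1 knockout and 30.0, 31.7 and 24.1 CPM in NFIB mutant libraries and was not called. The other 5 peaks of Smarcd3 were called lower in both mutants, with log2 fold changes of -0.63 to -1.71 and of -0.82 to -1.85. The smallest with CARM1 knockout, at a start 25.8 kb into the gene, had a 95% interval of -1.28 to 0.01 (adjusted p = 0.0778, edgeR). Whether the smaller of these 5 falls stayed called under other scalings was not followed. The largest of these falls was at another start, 27.6 kb into the gene, from 14.5 to 21.7 CPM in TKO to 3.50 to 6.63 CPM in the mutants. For Phf10 the start site peak changed by -0.70 ± 0.22 and -0.71 ± 0.22, with the CARM1 knockout libraries below the TKO range and the NFIB mutant libraries overlapping with it, and a weak peak over an exon rose by 2.39 ± 0.55 and 1.87 ± 0.55 from under 0.32 CPM in TKO.

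**Figure D5:**
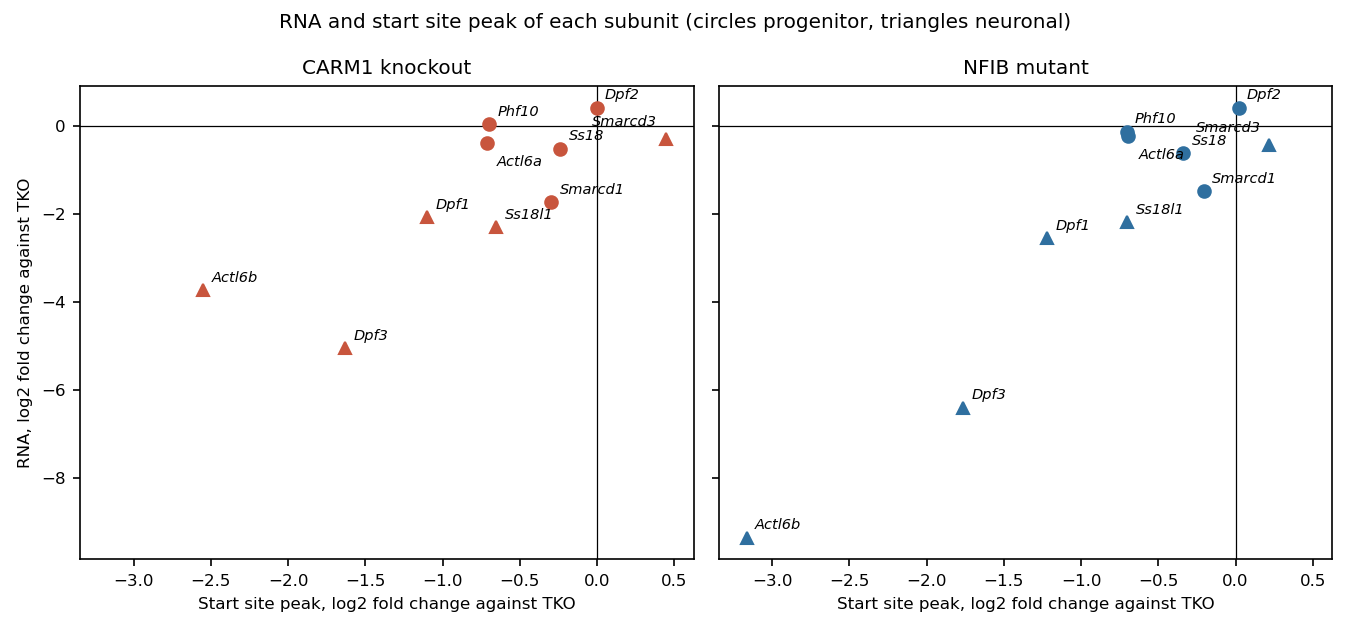
RNA log2 fold change (y axis) against the log2 fold change of the start site peak with most reads (x axis) for the 10 subunits, in CARM1 knockout (left) and NFIB mutant tumors (right). Actl6b and Dpf3 lie lowest on both axes, and Smarcd1 has a fall of RNA beside a peak near 0, and the fitted RNA values of Actl6b and Dpf3 rest on few mutant reads and are no measure of size.

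Among the start site peaks with most reads, the moderate falls at Actl6a, Phf10 and Ss18l1 depended on how the libraries were scaled. With totals over start-site peaks of genes whose RNA hardly changed, they were -0.33, -0.29 and -0.26 in CARM1 knockout and -0.24, -0.25 and -0.23 in NFIB mutant tumors, and none was called. The changes at the start site peaks with most reads of Actl6b, Dpf1 and Dpf3, and at the Dpf1 and Dpf3 peaks with the largest mean change, stayed called under all scalings tried. Peaks outside the naming rule, other moderate falls among them, were not followed singly across scalings. With these start-site totals 17 and 16 of the 43 peaks were called lower, instead of 25 and 24, and 8 and 9 higher, instead of 7 in each mutant. The main start site peak of Smarcd3 was then called higher, by 0.84 and 0.70. None of the 43 peaks was called between the mutants, where edgeR called 0% of all peaks higher and 0% lower, and 6813 peaks had an unadjusted p under 0.05. The difference was largest at the intronic Dpf3 peak shown above, 1.97 higher in CARM1 knockout tumors (95% interval 0.68 to 3.26, adjusted p = 0.653).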

How the data were processed

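RNA-seq and ATAC-seq libraries of cells sorted from lung tumors were used, 3 per genotype and assay. The authors deposited unnormalized counts of reads per gene, made with HTSeq after mapping to mm10 with hisat2 by the Methods, and counts per merged peak from featureCounts 1.6.3 per the file headers. The labels' processing notes name GRCm38, Genrich, HTSeq, featureCounts and DESeq. Column letters C, KO and N were read as the TKO, CARM1 knockout and NFIB mutant groups. The strand setting is not given in the sources used here, so reads of Actl6a, Phf10, Smarcd1, Smarcd3 and Ss18 that overlap other genes cannot be assigned with certainty. From the gene table, 5 summary entries were left out of all totals (3.65 to 12.2% no feature, 3.84 to 4.50% ambiguous and 3.18 to 6.31% not unique).

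Counts were analysed with edgeR 4.0.16 and limma 3.58.1 in R 4.3.3 (TMM, filterByExpr, robust quasi-likelihood test, Benjamini-Hochberg adjustment over all features, 1 model of 9 libraries per assay, no term for the replicate number), with DESeq2 1.42.0 as an alternative. CPM used the TMM factors, and levels per kilobase used merged exons of GENCODE annotation. Ratios of few reads, pooled over the libraries of a genotype, have an exact binomial interval at 95%, which leaves out the spread between animals. The fits were tested on simulated data. Same-numbered libraries did not deviate together (r of -0.30 to 0.12), so the numbers did not pair them. All 10 subunits are named. Of the other lists, genes with the same call in both mutants and Rest, Smarca4, Smarca2, Smarcc1 and Smarcd2 are named. Genes outside this rule (Hdac1, Tfr2, Psma7, Carm1, Nfib, Calca, Resp18, Cd3e, Cd3g) were named after their values were seen. Peaks named are, for each gene, the start site peak with most reads and the one with the largest mean change among those of at least 1 CPM in a genotype, and other peaks were named after their values were seen. The 5 genes most like Actl6b and Actl6a are named. The members and lists were chosen with earlier results of these data known.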

Additional observations from a re-analysis of the deposited data

How the results depend on the processing

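The 4 subunits called lower in CARM1 knockout and the 5 in NFIB mutant tumors stayed 4 or 5 and 5 without any single library. With at least 10 counts in every library, where Actl6b and Dpf3 are not tested, 3 were called lower in NFIB mutant tumors, and 4520 genes in all instead of 7099. That filter called 38831 peaks (20978 higher and 17853 lower) instead of 78985 in CARM1 knockout and 40676 instead of 81432 in NFIB mutant tumors. It leaves weak subunit peaks untested. Of the rest, 16 were lower and 5 higher in CARM1 knockout tumors, and 4 were higher in NFIB mutant tumors. With library totals alone 16 subunit peaks were lower and 10 higher in each mutant, and the main start site peak of Dpf2 turned from -0.00 to 0.62 in CARM1 knockout and from 0.02 to 0.64 in NFIB mutant tumors, both called. Totals alone moved the median over all genes, in log2, by -0.27 and -0.33 and of all peaks by 0.57 and 0.57, and totals over start-site peaks shifted that of peaks by 0.41 and 0.48. Without the upstream 5000 bp, 4 subunit peaks were higher in NFIB mutant tumors.

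Between the mutants, instead of 0, at least 10 counts in every library gave 5 genes and 8 peaks, DESeq2 546 genes and 1060 peaks, totals alone 7 peaks, and a fit of the groups compared alone 16 peaks. Leaving out 1 library gave 0 to 2 genes and 0 to 50 peaks. With the replicate number as a replicate block, 5485 instead of 6021 genes were called in CARM1 knockout and 6508 instead of 7099 in NFIB mutant tumors, and Actl6b was called in CARM1 knockout tumors as well (log2 fold change -5.76). The block also turned Smarca2 to called higher in both mutants (2.91 and 3.38), and under it the intronic Smarcd1 peak in NFIB mutant tumors (-1.90) and the CARM1 knockout calls of the weak Actl6a (0.87) and Dpf2 (1.87) peaks were lost. Of the other values, 1993 single-gene or single-peak values kept their side of the threshold, although values called in neither fit could change sign. Of the single values, 42 fell under the threshold and 22 passed it. A further 369 summary values stayed within a fixed margin of the main value. Depth limits the low genes Actl6b and Dpf3.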
